A study of Mus musculus with 29 samples.

Results

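The genes described here are 10 members of the MYC network: the transcription factors Myc and Mycn, their partner Max, the MAX-binding repressors Mxd1, Mxd4, Mxi1 and Mnt, and the direct MYC targets Odc1, Ncl and Nolc1. They were chosen by name, as the probe sets that the platform annotation assigns to these genes, in all 29 arrays. The annotation gave them 27 of the 45101 probe sets. Of these, 26 passed the filter on dim signals, and a dim probe set of Mnt did not. The brightest probe set stood for each gene, so that all 10 members were among the 14602 genes tested.

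The study measured total RNA from mouse lung tumours that form when doxycycline switches on oncogene transgenes, and its title concerns relapse after the oncogene is withdrawn. The samples were 6 TI-KM recurrences and 14 TI-KM primary tumours, both with the transgenes CCSP-rtTA and TRE-Mad2 and a TRE oncogene transgene, 8 TI-K primary tumours with CCSP-rtTA and the same oncogene transgene but no TRE-Mad2, and 1 normal lung with CCSP-rtTA alone. All were of a mixed 129/Bl6 background, and the labels describe the tumours as lung adenocarcinoma or adenoma. In these models the CCSP promoter places the doxycycline-dependent activator rtTA in lung epithelium, and rtTA drives the TRE transgenes, of which Mad2 encodes a protein of the spindle assembly checkpoint. TI-KM primaries 1 and 2 share the number 76 in their titles, and no label says which other samples came from separate mice, so the p-values measure the spread between these samples. The normal lung is a single array. Its spread was taken to equal that of the tumour groups.

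MYC proteins bind DNA as dimers with MAX at the E-box, CACGTG and close variants, and activate genes for ribosome production, nucleotide and polyamine synthesis and the cell cycle. The MXD proteins, MXI1 and MNT also dimerize with MAX, occupy the same sites and recruit repressors.

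The arrays fell into sets that lie unevenly over the groups. The 18S ribosomal RNA control signal was 12665 to 24001 in 10 arrays, here called the high-18S set, which holds recurrences 1 to 4 and TI-KM primaries 1 to 6. It was 7616 to 8523 in 5 TI-K primaries with title numbers above 6000, here called the high-number set. It was 5939 to 10857 in the remaining set, which holds 13 tumours (recurrences 5 and 6, TI-KM primaries 7 to 14 and TI-K primaries 6 to 8), and 12569 in the normal lung. Inside the TI-KM primary group, high-18S and other arrays differed in 6182 genes (42.3%) at limma's adjusted p below 0.05. Results between tumour groups are therefore given also in a fit that takes the sets as a block, and inside the remaining set alone. In the block, TI-KM and TI-K primaries share arrays of the remaining set only, and that part of the fit rests on 8 against 3 tumours. The normal lung was placed in no set. Its 18S signal of 12569 lay above the range of the remaining set, so tumours of that set and the normal lung differ in this signal too.

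Promoter sequences from RefSeq (GRCm38.p6), reaching 250 bases upstream and 50 downstream of the annotated start, were on hand for 9 of the 10 members, all but Myc. The E-box CACGTG, which reads the same on both strands, occurred in Max, Mnt and Mxd4. The E-box variant CACGCG, searched on both strands (its complement reads CGCGTG), occurred in Odc1 and Nolc1. Over 32851 promoters of the same length, 7.15% held CACGTG and 9.27% held CACGCG. Counted per gene, as for the members, the shares were 8.09% and 10.5% of 27025 genes. The windows of Mnt and Odc1 are shown because these were the 2 members called between tumour groups, and that of Max because it encodes the partner of all the factors. Capitals mark the motif.
Mnt (chr11:74830674-74830973, plus strand): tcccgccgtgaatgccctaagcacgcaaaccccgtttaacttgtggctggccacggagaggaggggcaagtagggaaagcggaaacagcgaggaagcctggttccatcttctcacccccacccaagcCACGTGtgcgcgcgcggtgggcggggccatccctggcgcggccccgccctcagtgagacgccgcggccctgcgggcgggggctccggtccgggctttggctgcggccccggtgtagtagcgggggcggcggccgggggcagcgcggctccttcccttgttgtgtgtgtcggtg
Odc1 (chr12:17544623-17544922, plus strand): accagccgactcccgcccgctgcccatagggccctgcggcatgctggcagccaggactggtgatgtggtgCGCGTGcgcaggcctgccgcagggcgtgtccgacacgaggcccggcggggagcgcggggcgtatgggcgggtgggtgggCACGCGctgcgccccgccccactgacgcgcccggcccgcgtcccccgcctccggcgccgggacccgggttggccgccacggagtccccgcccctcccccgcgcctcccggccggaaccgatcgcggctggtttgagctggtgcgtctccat
Max (chr12:76962199-76962498, minus strand): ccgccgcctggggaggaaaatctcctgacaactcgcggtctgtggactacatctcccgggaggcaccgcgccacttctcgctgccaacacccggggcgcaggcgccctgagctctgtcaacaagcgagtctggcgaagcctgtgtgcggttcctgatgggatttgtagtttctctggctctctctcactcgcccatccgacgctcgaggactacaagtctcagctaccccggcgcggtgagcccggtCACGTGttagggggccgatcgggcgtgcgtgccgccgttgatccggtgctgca
The motif of Mnt starts 123 bases upstream of the annotated start, that of Max 3 bases upstream, and those of Odc1 180 and 101 bases upstream. A match of letters describes the sequence and does not show that a factor binds there.

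Myc (chr15:61985341-61990361) was higher in the tumours than in the normal lung, about 4.0-fold, and differed between tumour groups by less than the test could call. Its 1 probe set had signals, on the linear scale of the deposited intensities, of 366, 632 and 908 (lowest, median, highest) in recurrences. In TI-KM primaries they were 278, 453 and 660, in TI-K primaries 431, 619 and 940, and in the normal lung 120. All 28 tumours lay above the normal lung, from 2.32 to 7.85 times its signal. Here and below, the share of all genes is not given for such counts of tumours against the 1 normal array. Within an array, Myc stood at the 66th to 84th percentile of all probe sets in tumours and at the 52nd in the normal lung. On the log2(signal + 20) scale, the mean of the 3 tumour groups exceeded normal lung by 2.00 ± 0.41 (SE), with limma's adjusted p = 0.000906. Across 42 alternative settings the difference was 1.55 to 2.12 and was called in each, with adjusted p between 0.000545 and 0.0103. It was 2.13 ± 0.44 for recurrences, 1.74 ± 0.42 for TI-KM primaries and 2.13 ± 0.43 for TI-K primaries, all against the same normal array. Myc was the 1 member of 10 called in that comparison, where 13.7% of all genes were called, 7% as higher and 6.69% as lower.

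The normal lung also differed from the tumours in its cell type markers. The summed signal of 7 alveolar type II markers was 71182 to 170468 in tumours and 49604 in the normal lung, and 6 of the 7 were called higher in tumours. The other, Sftpc, went the opposite way, with a difference of -0.75 that was not called. Its signal was 28262 in the normal lung, with medians of 18660 in TI-K and 16570 in TI-KM primaries. With the remaining set as the only tumours it was called lower, where 26.2% of all genes were called. The sum of 5 endothelial markers was 1375 to 5923 in tumours and 12822 in the normal lung, with 4 of 5 called lower. That of 2 adipocyte markers was 1246 to 9987 in tumours and 44304 in the normal lung, and both were called lower. In bulk tissue, fewer cells of a type and less RNA per cell cannot be told apart, and the part of these markers in the Myc difference was not tested.

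**Figure D1:**
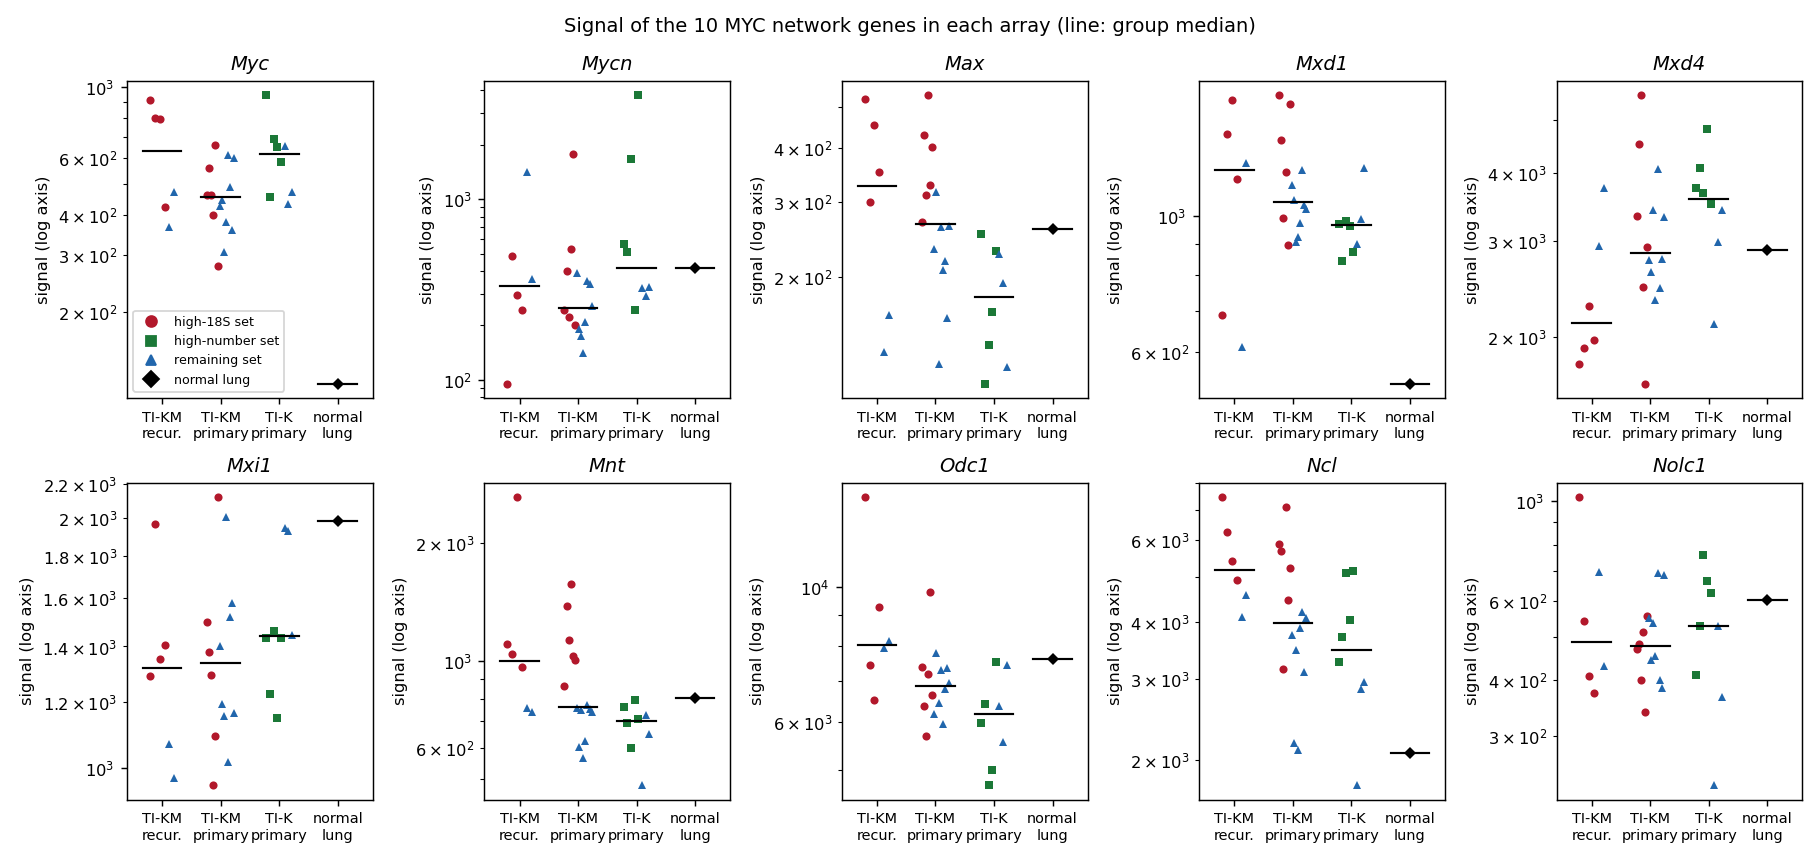
Signal of each member (brightest probe set, log axis) in every array, for TI-KM recurrences, TI-KM primaries, TI-K primaries and the normal lung; marker shape and colour give the array set and the line is the group median. All 28 tumours lie above the 1 normal lung for Myc, which was called, and for Mxd1, which was not. The high-18S arrays lie high within TI-KM groups for Max, Mnt and Ncl.

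Between tumour groups, Myc averaged 9.25 ± 0.54 in recurrences (SD, n = 6), 8.87 ± 0.35 in TI-KM primaries (n = 14) and 9.26 ± 0.36 in TI-K primaries (n = 8), as log2(signal + 20). Recurrences and TI-K primaries thus did not differ beyond their spread, and TI-KM primaries averaged lowest. Recurrences exceeded TI-KM primaries by 0.39 ± 0.20 (SE, adjusted p = 0.422). TI-KM primaries were below TI-K primaries, with a difference of -0.39 ± 0.18 (adjusted p = 0.151), and recurrences differed from TI-K primaries by -0.003 ± 0.22. Recurrences 1, 2 and 3, of the high-18S set, had signals of 908, 798 and 793, above all 14 TI-KM primaries. Recurrence 4, of the same set, had 424, and recurrences 5 and 6, of the remaining set, had 366 and 471. The difference from TI-KM primaries was 0.61 within the high-18S set and -0.085 within the remaining set. The test of that contrast between sets gave 0.69 ± 0.39 (adjusted p = 0.910), and no gene of 14602 was called in it by limma (0%), with 807 at an unadjusted p below 0.05.

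Mycn (chr12:12936093-12941836), a MYC paralogue best known from developing tissue and neuroblastoma, had the widest range of the members, from 95.4 to 3746 over tumours (39.3-fold). Its signals were 95.4, 330 and 1420 in recurrences (lowest, median, highest), 141, 250 and 1779 in TI-KM primaries, 245, 416.9 and 3746 in TI-K primaries, and 416.6 in the normal lung. A few tumours carried the high values: TI-K primaries 5 and 3 with 3746 and 1664, TI-KM primary 5 with 1779 and recurrence 5 with 1420, while no other tumour passed 564. TI-KM primaries differed from TI-K primaries by -0.92 ± 0.45 (adjusted p = 0.176), and by -0.08 ± 0.65 with the block. The recurrence difference was -0.69 within the high-18S set and 1.497 within the remaining set, where recurrence 5 is 1 of 2 recurrences. That contrast between sets had an unadjusted limma p of 0.0139 and an adjusted p of 0.770. The other probe sets of Mycn did not follow the brightest one. In recurrences against TI-KM primaries the brightest gave 0.21 ± 0.49, and the others gave -0.96 ± 0.39 and -0.16 ± 0.37.

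Max (chr12:76937269-76962323), the shared partner, had signals of 134, 326 and 521 in recurrences (lowest, median, highest), 125, 266 and 531 in TI-KM primaries, 113, 180 and 252 in TI-K primaries, and 259 in the normal lung. Of the recurrences, 4 of 6 lay above all TI-K primaries, as did 9 of 14 TI-KM primaries. The 4 recurrences were those of the high-18S set. Recurrences exceeded TI-K primaries by 0.67 ± 0.28 (adjusted p = 0.0894), and TI-KM primaries exceeded them by 0.59 ± 0.23 (adjusted p = 0.0957). With the block these differences were 0.06 ± 0.29 and 0.20 ± 0.25. Within TI-KM primaries, high-18S arrays exceeded the remaining ones by 0.72 ± 0.20 (adjusted p = 0.00725).

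Max was thus 1 of 3 members, with Mnt and Ncl, that differed between array sets inside a single tumour group, where 42.3% of all genes did. These 3 calls depended on the scaling. With each array scaled to a common median, the all-gene median of the set difference moved to -0.44, from 0.21 without that scaling, and the differences of Max, Mnt and Ncl became 0.07, 0.02 and -0.04, none of them called. Under quantile normalization Mnt and Ncl were called and Max was not.

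Among the repressors, Mnt (chr11:74830806-74845725) was called between tumour groups. Mnt encodes a broadly expressed repressor that pairs with MAX. Its signals were 738, 1002 and 2627 in recurrences (lowest, median, highest), 565, 764 and 1574 in TI-KM primaries, 481, 702 and 794 in TI-K primaries, and 804 in the normal lung. The 4 high-18S recurrences lay above all TI-K primaries, and recurrences 5 and 6, with 760 and 738, lay within their range. Mnt rose in recurrences against TI-K primaries by 0.68 ± 0.23 on the log2 scale, or 1.60-fold (adjusted p = 0.0416). With Odc1, it made 2 of 10 members called in that comparison, both higher, where 18.9% of all genes were called (12.2% as higher and 6.73% as lower). The call did not hold with the block (0.32 ± 0.25, adjusted p = 0.657) or in the remaining set (0.28 ± 0.21, adjusted p = 0.627), where 0.0959% and 0.13% of all genes were called. Recurrence 3 had 2627, against 1105 for the next recurrence, and without it the difference was 0.43 (adjusted p = 0.151). The call held in 31 of 45 alternatives, with adjusted p between 0.0188 and 0.657, and leaving out any one of recurrences 1 to 4 or TI-K primaries 1, 2, 3, 5, 6 and 8 ended it.

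Mxd1 (chr6:86647044-86669234), which encodes a repressor induced as cells differentiate, had signals of 612, 1185 and 1544 in recurrences (lowest, median, highest), 896, 1051 and 1571 in TI-KM primaries, 843, 966 and 1197 in TI-K primaries, and 533 in the normal lung. All 28 tumours lay above the normal lung, from 1.15 to 2.95 times its signal. The difference was 0.93 ± 0.33 and missed the threshold (adjusted p = 0.0595). With the remaining set as the only tumours, where 26.2% of all genes were called, it was 0.84 ± 0.28 and was called (adjusted p = 0.0382), 1 of 3 such calls in 42 alternatives. The tumour groups differed from each other in Mxd1 by 0.20 or less on the log2 scale.

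Mxd4 (chr5:34176580-34187710), another MXD repressor, is associated with non-dividing cells. It had signals of 1779, 2124 and 3746 in recurrences (lowest, median, highest), 1640, 2852 and 5552 in TI-KM primaries, 2113, 3588 and 4826 in TI-K primaries, and 2887 in the normal lung. The 4 high-18S recurrences were the lowest of the recurrences, at 1779 to 2279. Recurrences differed from TI-K primaries by -0.56 ± 0.22 (adjusted p = 0.0651), by -0.16 ± 0.29 with the block and by 0.25 ± 0.25 within the remaining set. One of the other 3 probe sets of Mxd4 went the opposite way and was called when all probe sets were fitted: it gave 0.88 ± 0.27 for recurrences against TI-K primaries (adjusted p = 0.0176) and 0.66 ± 0.22 for TI-KM against TI-K primaries (adjusted p = 0.0398). Mxd4 is therefore given without a direction between tumour groups.

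Mxi1 (chr19:53310128-53373293), also known as Mxd2, had a signal below the normal lung in 26 of 28 tumours. Its signals were 972.6, 1320 and 1966 in recurrences (lowest, median, highest), 952, 1336 and 2120 in TI-KM primaries, 1149, 1440 and 1945 in TI-K primaries, and 1985 in the normal lung. The difference from normal lung was -0.52 ± 0.34 (adjusted p = 0.358). Its other probe set gave 1.18 ± 0.64 for the same comparison, the opposite sign. Between tumour groups, no difference of Mxi1 exceeded 0.18 in size without the block. With the block the differences from TI-K primaries were larger, though not called. They were -0.52 ± 0.24 for recurrences (adjusted p = 0.417) and -0.44 ± 0.21 for TI-KM primaries (adjusted p = 0.975). Within the remaining set, recurrences differed from TI-K primaries by -0.77 ± 0.25 (adjusted p = 0.239).

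**Figure D2:**
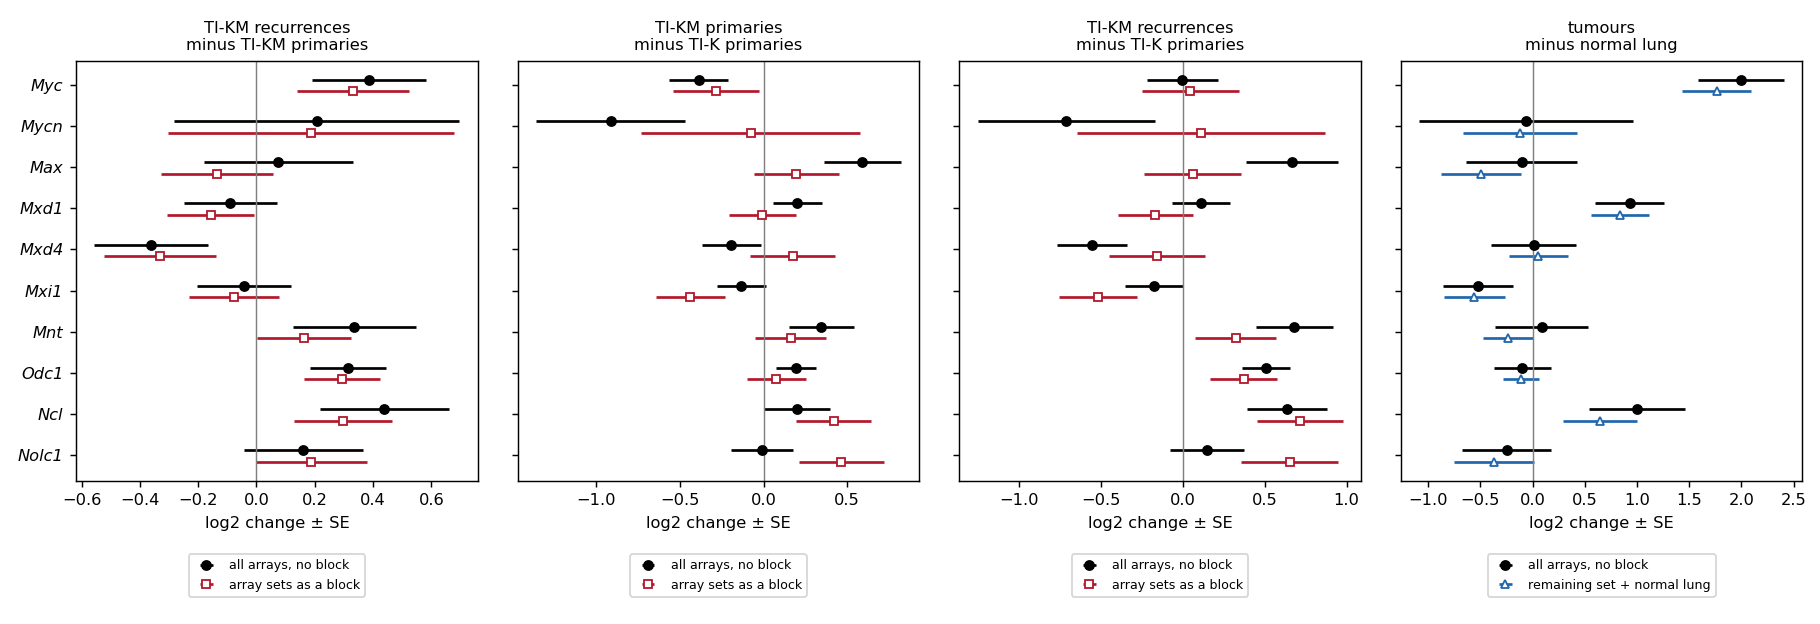
Log2 difference ± SE for each member in the 4 comparisons, with all arrays (filled circles) and, in red squares, with the array sets as a block or, in blue triangles, with the remaining set and the normal lung only. Myc stands at 2.00 against normal lung, and the differences of Mnt and Max from TI-K primaries move to 0.32 and 0.06 with the block.

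Odc1 (chr12:17544808-17551502), the rate-limiting enzyme of polyamine synthesis and a classic MYC target, was the other member called between tumour groups. Its brightest probe set had signals of 6506, 8028 and 14049 in recurrences (lowest, median, highest), 5686, 6868 and 9793 in TI-KM primaries, 4710, 6168 and 7518 in TI-K primaries, and 7607 in the normal lung. Recurrence 1 held the highest value, and 4 of 6 recurrences lay above all TI-K primaries. Odc1 rose in recurrences against TI-K primaries by 0.51 ± 0.14, or 1.42-fold (adjusted p = 0.0169). Against TI-KM primaries the difference was 0.31 ± 0.13 (adjusted p = 0.327), and 0 of 10 members were called in that comparison, where 0.26% of all genes were. At an unadjusted limma p below 0.05, Odc1 was the 1 member in it, beside 1817 genes in all.

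The Odc1 call rested on 1 probe set of 3, of the kind whose probes may match other transcripts. The other probe sets gave -0.01 ± 0.21 and 0.18 ± 0.20 for recurrences against TI-K primaries. With the mean of the probe sets the difference was 0.22 (adjusted p = 0.287). It was 0.37 ± 0.20 with the block (adjusted p = 0.503), 0.32 ± 0.15 within the remaining set (adjusted p = 0.414) and 0.37 without recurrence 1 (adjusted p = 0.0582). The Odc1 gene thus has no call that its 3 probe sets share.

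**Figure D3:**
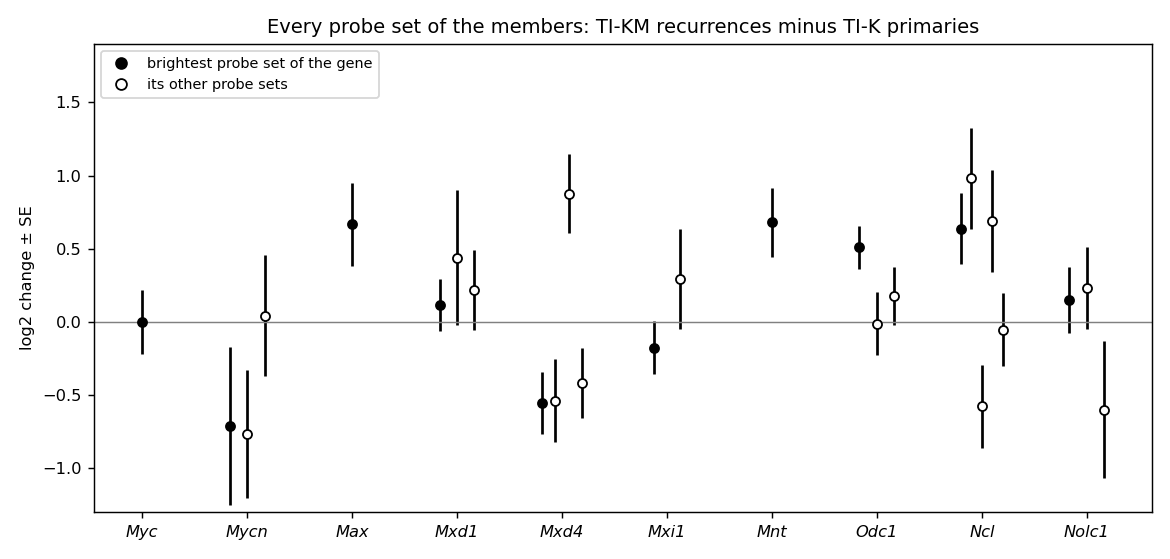
Log2 difference ± SE of recurrences minus TI-K primaries for each of the 26 kept probe sets of the members, with the brightest probe set of each gene filled. Probe sets of 1 gene lie on both sides of 0 for Mycn, Mxd4, Mxi1, Odc1, Ncl and Nolc1.

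Ncl (chr1:86344719-86359455) encodes nucleolin, an abundant nucleolar protein of ribosome production. Its signals were 4085, 5180 and 7447 in recurrences (lowest, median, highest), 2101, 3974 and 7106 in TI-KM primaries, 1765, 3479 and 5142 in TI-K primaries, and 2071 in the normal lung. All 6 recurrences lay above 8 of 14 TI-KM primaries, and 3 of 6 lay above all TI-K primaries. The difference from TI-K primaries was 0.64 ± 0.24 (adjusted p = 0.0613), 0.72 ± 0.26 with the block (adjusted p = 0.271) and 0.81 ± 0.31 within the remaining set (adjusted p = 0.315). It was thus of like size with and without the array sets and past the threshold in neither, and it was called in 7 of 45 alternatives (adjusted p 0.0450 to 0.346).

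Against normal lung, 27 of 28 tumours had more Ncl signal, and the difference was 1.0 ± 0.46 (adjusted p = 0.161). With the high-18S set as the only tumours it was 1.40 (adjusted p = 0.0254), where 2187 of 14602 genes were called. The 5 Ncl probe sets disagreed. For recurrences against TI-K primaries they gave 0.64, 0.98, -0.58, 0.69 and -0.05 on the log2 scale.

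Nolc1 (chr19:46075847-46085543), which encodes a nucleolar chaperone of small nucleolar ribonucleoproteins, had signals of 374, 487 and 1021 in recurrences (lowest, median, highest), 340, 476 and 691 in TI-KM primaries, 233, 528 and 760 in TI-K primaries, and 602 in the normal lung. Recurrence 1 was high here too, with 1021 against 695 for the next recurrence. No comparison called Nolc1. Its difference between recurrences and TI-K primaries was 0.15 ± 0.23, and 0.65 ± 0.29 with the block (adjusted p = 0.401).

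Over the 10 members, the median difference was 0.18 for recurrences against TI-KM primaries, beside 0.04 for all genes. It was 0.09 for TI-KM against TI-K primaries, beside 0.08 for all genes, and 0 of 10 members were called there, where 8.01% of all genes were (5.5% as higher and 2.51% as lower). At an unadjusted limma p below 0.05 that comparison held 3 members, Myc, Mycn and Max, beside 4075 genes in all. The median was 0.13 for recurrences against TI-K primaries, beside 0.11, and -0.03 against normal lung, beside 0.08. The share of members called was thus near or below that of all genes in each comparison.

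Myc was next set against its 3 targets, array by array. Within the high-18S set (n = 10) Pearson's r of Myc was 0.45 with Odc1, 0.27 with Ncl and 0.29 with Nolc1, and Spearman's rho was 0.38, 0.36 and 0.13. Within the remaining set (n = 13) r was -0.24 with Odc1, -0.08 with Ncl and -0.18 with Nolc1, and rho was -0.23, 0.04 and -0.21. None of these 6 relations passed a permutation test, with unadjusted p for r of 0.189 to 0.804 and adjusted p of 0.673 to 0.804. Without the 2 arrays farthest from the Myc median, r in the high-18S set was 0.003, 0.08 and 0.02, and in the remaining set -0.33, 0.40 and 0.36. The high-number set has 5 arrays, too few for such a test.

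**Figure D4:**
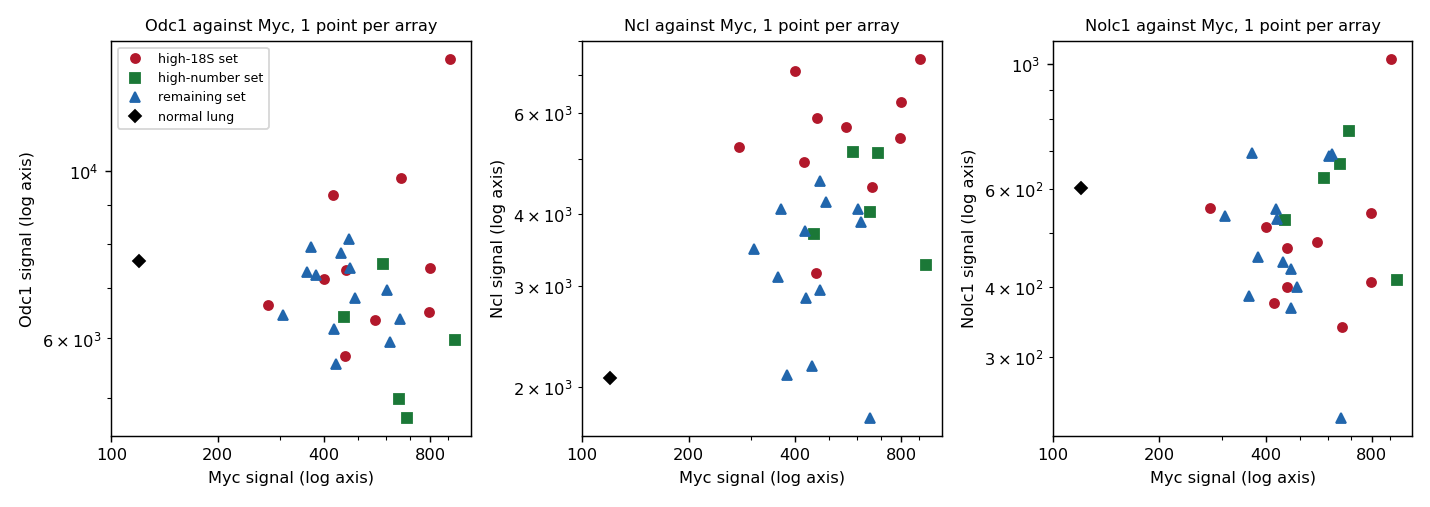
Signals of Odc1, Ncl and Nolc1 against that of Myc (log axes), 1 point per array, coloured by array set. The normal lung lies apart at a Myc signal of 120, and within the sets r runs from -0.24 to 0.45.

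The genes whose pattern was most like that of Myc over the 28 tumours, after group means were removed, were 2610020C07Rik (r = 0.67), Scara3 (0.66), Fkbp5 (0.64), Egr3 (0.64) and Dis3 (0.64). Within the remaining set r was 0.66, 0.64, 0.75, 0.55 and 0.32 for these 5 genes. Fkbp5 is a co-chaperone induced by glucocorticoids, and Egr3 is an immediate-early transcription factor. For Odc1 they were Snx5 (0.76), Slbp (0.73) and Smc2 (0.73), of which Slbp binds histone mRNA and Smc2 is a condensin subunit. These are the highest of 14602 correlations, arrays share sets, and no test was made.

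The neighbours of Myc on chromosome 15 were set against it across tumours. Of 33 tested genes within 5 Mb, 19 had a positive r with Myc over the 28 tumours, and the median r was 0.03, the same to that precision as over all genes. The 7 genes within 2 Mb had a positive r in 5 cases, a median r of 0.24 and a range of -0.18 to 0.38, and Pvt1, the long noncoding RNA gene beside Myc, had the highest of these. Relative to its group mean, Myc was highest in TI-K primary 1 (0.65), recurrence 1 (0.60) and TI-KM primary 5 (0.54). In these 3 tumours the median of the 33 neighbours was 0.05, -0.006 and -0.04, and that of the 7 nearer ones was 0.24, 0.29 and 0.21. The median of all genes in them was -0.03, 0.12 and 0.12. Some tumours with less Myc had like values for the 7, such as 0.34 in TI-K primary 5 (Myc -0.01) and 0.20 in recurrence 4 (Myc -0.46). Over the 28 tumours, r of Myc with the median was -0.09 for the 33 genes and 0.40 for the 7. No test of either window was made. RNA levels do not measure copy number.

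The other genes of the network and its targets were read from lists. Of 6 further MYC and MLX network genes, Mlxip, which encodes the glucose sensor MondoA, fell in TI-KM primaries against TI-K primaries (-0.57 ± 0.17, adjusted p = 0.0382) and in recurrences against TI-K primaries (-0.58 ± 0.21, adjusted p = 0.0472). Its signals were 371, 460 and 574 in recurrences (lowest, median, highest), 283, 464 and 766 in TI-KM primaries, and 436, 759 and 960 in TI-K primaries. Mycl, the third MYC paralogue, rose in recurrences against TI-K primaries by 1.52 ± 0.46 (adjusted p = 0.0233), at low signals of 7.85, 113 and 160 in recurrences and 5.14, 8.70 and 29.4 in TI-K primaries (lowest, median, highest). With the block these differences were -0.21, -0.26 and 0.50, with adjusted p of 0.995, 0.745 and 0.625. Without the block, 2.51% of all genes were called lower in TI-KM against TI-K primaries. In recurrences against TI-K primaries 12.2% were called higher and 6.73% lower. Mxd3, a repressor of dividing cells, differed by 0.64 ± 0.29 between recurrences and TI-K primaries, and Mga by -0.25 ± 0.17, and neither was called.

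Mlxipl, which encodes the carbohydrate response factor ChREBP of liver and fat, fell by 5.64 on the log2 scale in tumours against the normal lung (adjusted p = 1.03e-05). Its signal was 111 or less in every tumour and 2559 in the normal lung. The same lung had the high adipocyte marker sum given above, whose part in the result was not tested. Mlx, the shared partner of Mlxip and Mlxipl, rose in tumours against the normal lung by 0.88 ± 0.29 (adjusted p = 0.0391), but was not called with a common median or with quantile normalization.

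Of 23 tested MYC cofactors and regulators, Huwe1, a ubiquitin ligase with MYC among its substrates, fell in TI-KM against TI-K primaries (-0.71 ± 0.16, adjusted p = 0.0118). It was the 1 call of the list there, where 2.51% of all genes were called lower. In recurrences against TI-K primaries 2 rose, Bin1 (0.75 ± 0.22) and Ruvbl2 (0.63 ± 0.20), beside 12.2% of all genes. Against normal lung 1 fell, the kinase gene Pim1 (-1.63 ± 0.53), beside 6.69% of all genes. The Pim1 call was lost with a common median. The list's medians were 0.14, 0.19 and 0.20 in these comparisons, beside 0.08, 0.11 and 0.08 over all genes.

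Around Odc1, 2 of 13 tested polyamine genes rose in tumours against the normal lung, where 7% of all genes were called higher, with a list median of 0.40 beside 0.08 for all genes. Arg2, the arginase that supplies ornithine, rose by 5.61 ± 0.80, and its signals were 263 to 5524 in tumours and 28.98 in the normal lung. Azin1, the inhibitor of the antizyme that degrades ornithine decarboxylase, rose by 1.97 ± 0.33, with signals of 4372 to 11197 in tumours and 2149 in the normal lung. In TI-KM against TI-K primaries, where 5.5% of all genes were called higher, 2 rose: Dohh (0.63 ± 0.19), which acts on the polyamine-dependent factor eIF5A, and the antizyme gene Oaz2 (0.40 ± 0.12). With a common median 1 of 13 was called there. In recurrences against TI-K primaries, where 12.2% of all genes were called higher, 2 rose, Oaz3 (1.47 ± 0.46) and Dohh (0.81 ± 0.23). Oaz3 was dim, with signals of 5.83, 9.66 and 43.9 in TI-K primaries (lowest, median, highest) and 49.1 in the normal lung.

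Around Ncl and Nolc1, 3 of 39 tested genes of the nucleolus and ribosome production rose in tumours against the normal lung, beside 7% of all genes, with a list median of 0.23. With a common median 1 of 39 was called. The largest were Npm1, nucleophosmin (1.52 ± 0.31), and the RNA polymerase subunit gene Polr1c (1.40 ± 0.34). In TI-KM against TI-K primaries 3 of 39 rose, among them Polr1b, the second largest subunit of RNA polymerase I (0.57 ± 0.18), and Grwd1 (0.50 ± 0.16), beside 5.5% of all genes. None of these 3 held with a common median. In recurrences against TI-K primaries 4 of 39 rose, beside 12.2% of all genes, led by Polr1b (0.87 ± 0.22) and the helicase gene Ddx21 (0.69 ± 0.17). The list's counts lie near those shares. Polr1b gave 0.98 with the block (adjusted p = 0.142) and 1.22 within the remaining set (adjusted p = 0.130).

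Of 34 other MYC-activated targets, 4 rose in tumours against the normal lung, beside 7% of all genes, with a list median of 0.06, among them Id2 (2.17 ± 0.52) and Tert (2.04 ± 0.66). None of these 4 was called with a common median. In recurrences against TI-K primaries 3 rose, a smaller share than the 12.2% of all genes, and 1 fell, which was Tert, the catalytic subunit of telomerase (-1.17 ± 0.35). The others named were Mcm4, a subunit of the replicative helicase (0.74 ± 0.27), and Shmt2, a folate enzyme of mitochondria (0.52 ± 0.18). In TI-KM against TI-K primaries 2 rose, beside 5.5% of all genes: Paics of purine synthesis (0.60 ± 0.12) and Shmt1 (0.66 ± 0.19). The higher calls of both comparisons were lost with a common median.

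MYC-repressed targets moved in both directions against the normal lung, with 3 of 17 higher and 3 lower, beside 7% and 6.69% of all genes. With a common median 1 was called higher and 3 lower. Clu, clusterin, rose by 2.17 ± 0.25 and the cell cycle inhibitor gene Cdkn1a by 1.60 ± 0.49, while Gas1 fell by 3.85 and Cdh2 fell by 3.58. Between tumour groups 1 of 17 was called, Cdkn1b, another cell cycle inhibitor gene. It was higher in TI-KM than in TI-K primaries by 0.92 ± 0.25, where 5.5% of all genes were called higher. With the block it differed by -0.17 (adjusted p = 0.995).

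Proliferation genes were the list with the most calls against the normal lung: 10 of 18 rose and none fell, beside 7% and 6.69% of all genes, with a median of 1.77 beside 0.08 for all genes. The list held 8 and 9 calls with a common median and with quantile normalization. With the remaining set as the only tumours it held 13, where 26.2% of all genes were called. The largest were Bub1b, of the spindle checkpoint (3.11 ± 0.82), and Birc5, survivin (2.69 ± 0.61). In recurrences against TI-K primaries 1 rose, Mcm6 (0.85 ± 0.26), and 1 fell, Bub1b (-1.49 ± 0.44), beside 12.2% and 6.73% of all genes. The Mcm6 call was lost with a common median.

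Between recurrences and TI-KM primaries none of the 7 lists held a call, with the block (0.705% of all genes called) or without it. At an unadjusted limma p below 0.05, without the block, 12 of their 150 tested genes passed, a smaller share than the 12.4% of all genes. Within the remaining set, which has 2 recurrences and where 0.0822% of all genes were called, 1 list gene was called: Pim1 fell by 1.60 (adjusted p = 0.0347), beside -0.35 with all arrays. In that set it also fell in recurrences against TI-K primaries, with a difference of -1.96 (adjusted p = 0.0220), beside -0.71 with all arrays. With the block none held a call in the other tumour comparisons either, where 0% and 0.0959% of all genes were called. Recurrences and TI-K primaries also differed in cell type markers. The summed signal of 4 club cell markers was 24256 to 88850 in recurrences (median 64744) and 12539 to 61776 in TI-K primaries (median 17912). That of 6 lymphocyte markers was 1072 to 22050 in recurrences (median 1614) and 888 to 1650 in TI-K primaries (median 1306). Called higher in recurrences were 3 of 4 ciliated, 1 of 4 club, 1 of 6 lymphocyte and 1 of 2 adipocyte markers. Of all genes, 12.2% were called higher. With the block none of these markers was called, and within the remaining set 1 club marker was called higher. Their part in the calls between these groups was not tested.

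**Figure D5:**
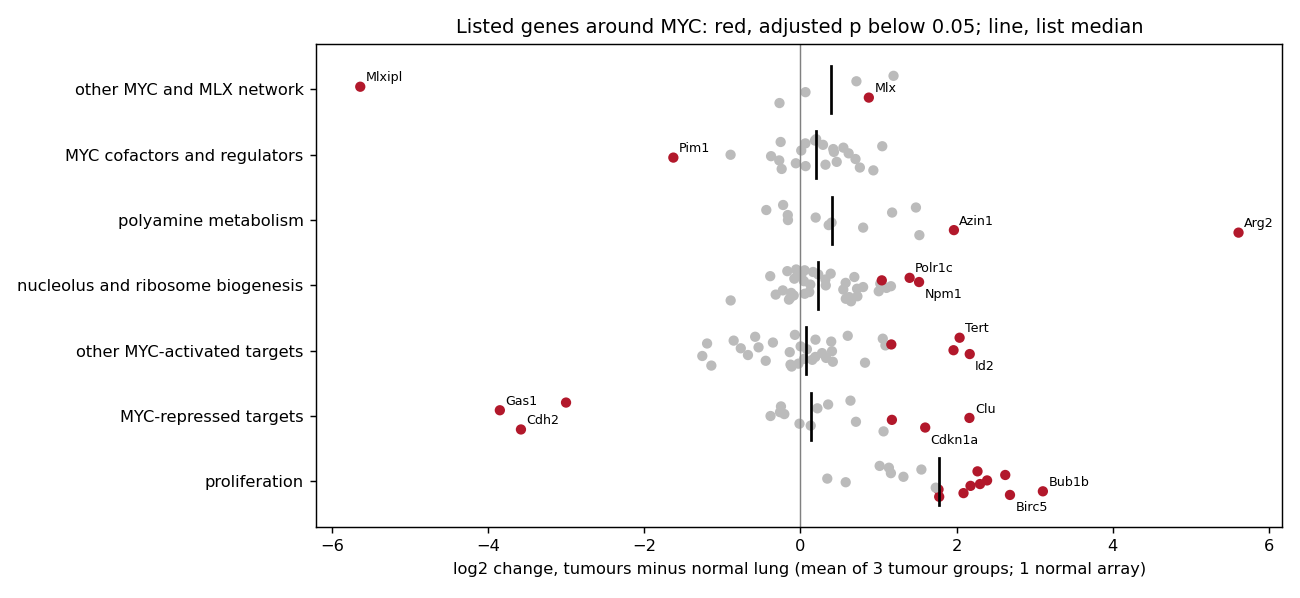
Log2 difference of tumours minus normal lung for every tested gene of 7 lists around MYC, with called genes in red and the list median as a line. Proliferation genes lie at a median of 1.77, and the medians of the other 6 lists are 0.06 to 0.40.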

How the data were processed

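Affymetrix arrays, 1 per sample, measured total RNA of 28 tumours and of 1 normal lung. The deposited values are intensities, 1 linear signal per probe set, made by the authors with MAS5 per the submitters' processing notes; its version and scaling target are not given in the sources used here. Their 2% trimmed mean was 500.003 in every array, so they were used as deposited. The number of arrays limits the precision.

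Probe sets were named from the platform annotation, with symbols and positions from RefSeq (GRCm38.p6) by gene identifier: 34945 named 1 gene (34741 of them matched), 932 several, 9160 none and 64 were controls. Probe sets above the 40th percentile of their array in at least 6 arrays were kept (31932), and the brightest represented its gene. The log2 of signal plus 20 was fitted by group means in limma 3.58.1 (R 4.3.3, the data.table package, version 1.17.8) with a variance trend, and p-values were Benjamini-Hochberg adjusted over all 14602 genes, with 0.05 as the threshold. Differences are on that log2 scale, which understates those of dim genes. Relations of Myc with its targets used permutation tests of 100000 resamples (SciPy 1.17.1, 2-sided), adjusted over 6 relations. The fit was tested on simulated data. Groups follow the source labels. Alternatives changed the offset, scaling, filter, probe set, variance model, samples fitted, array sets, the 3'/5' ratio of control transcripts as a covariate, the pair numbered 76 as 1 sample, and each array left out.

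The members and lists were chosen with earlier results of these data known, as were the array sets (18S signal above 12000, title number above 6000). Named beside the members are, per list and comparison, up to 2 called genes each way with the largest change, all genes of a list under 8, and the genes most correlated with Myc (5) and Odc1 (3). Some list genes without a kept probe set of their own were not analysed here. The name of the oncogene transgene is not reported here.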

Additional observations from a re-analysis of the deposited data

Results flagged for a closer look

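Of 20 groups of members with 6 or 8 arrays each tested for a single distant array by Dixon's criterion, 2 held one, where chance gives about 1 in 20. Recurrence 3 had an Mnt signal of 2627, and the next highest of the 6 recurrences had 1105. On the log2(signal + 20) scale the gap was 0.685 of the whole range. TI-K primary 8 had an Mxd1 signal of 1197, and the next highest of the 8 TI-K primaries had 987. On the same log2 scale the gap was 0.552 of the range.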

How the results depend on the processing

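No paired analysis was possible because the labels give no replicate numbers that the groups share. Of 1780 values of single members under alternative settings, 1739 kept their direction where called and their side of the threshold. Another 20 fell below it, 20 passed it and 1 of a called result turned its sign. That was Odc1 in recurrences against TI-K primaries, with -0.013 without the _x_at and _s_at probe sets. In that setting another probe set stands for the gene by construction. Changes of sign in results that were not called are counted among the 1739. The difference of Max between recurrences and TI-K primaries, for example, ran from -0.22 to 0.87. Myc against normal lung was called in all 42 alternatives. In recurrences against TI-KM primaries 0 members were called in all 46 alternatives. In recurrences against TI-K primaries 2 members were called. With a common median, with the mean of probe sets and without _x_at and _s_at probe sets 1 was called, in each case Mnt. With the sets as a block, within the remaining set and with the 3'/5' ratio as a covariate 0 were called. Quantile normalization called 3 (Max, Mnt and Odc1), as did the fit of all probe sets (Mnt, Odc1 and Ncl). With only the groups compared, Odc1 and Ncl were called and Mnt was not. Leaving out each array gave 0 to 5 there, 0 in TI-KM against TI-K primaries and in recurrences against TI-KM primaries, and 1 to 2 against normal lung. In TI-KM against TI-K primaries 1 member, Max, was called with quantile normalization. Against normal lung 2 members were called with the remaining set (Myc and Mxd1) or the high-18S set (Myc and Ncl) as the only tumours. Of the settings for the set difference and the recurrence effect by set, offsets of 5 and 100 and both scalings were chosen after seeing the data; with a common median, 6 members were called in the set difference (Myc, Mxd1, Mxd4, Mxi1, Odc1 and Nolc1, all lower in the high-18S arrays), and 1191 of 7770 called genes were higher, beside 4417 of 6182 without it. The median r of the Myc neighbours was 0.24 in the 2 Mb window. The cause of these shifts was not tested.

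Counts of called genes also moved. Recurrences against TI-KM primaries gave 38, and 72 with quantile normalization, 141 over all probe sets, 10 with only the groups compared, 103 with the block, 12 within the remaining set, 1 within the high-18S set, 0 with the 3'/5' ratio and 12 to 142 leaving out 1 array. TI-KM against TI-K primaries gave 1170, and 1862 with quantile normalization, 5052 over all probe sets, 766 with the pair numbered 76 averaged, 0 with the block or within the remaining set. Recurrences against TI-K primaries gave 2758, and 8583 over all probe sets, 14 with the block, 19 within the remaining set and 1558 with the 3'/5' ratio. Tumours against normal lung gave 1999, and 1237 with a common median, 3084 over all probe sets and 3829 with the remaining set. The fit of only the groups compared equals the reported fit for tumours against normal lung. Probe sets near the background of an array, and a single normal lung, limit what the arrays can show.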

Other observations

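The E-box CACGTG occurred in the RefSeq promoter windows of 11 of 33 other MYC-activated targets and 7 of 34 genes of the nucleolus and ribosome production, beside 8.09% of all 27025 genes with a window. It occurred in 1 of 16 proliferation genes and 1 of 12 MYC-repressed targets. The variant CACGCG occurred in 9 of 33 MYC-activated targets, 11 of 34 nucleolar genes and 7 of 19 MYC cofactors and regulators, beside 10.5% of all genes. These counts describe the windows of the lists and were not tested.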
